A study of Mus musculus with 6 samples.

Results

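Cdx1, Cdx2, Gata4, Gata5 and Gata6, the caudal-type homeobox and Gata zinc-finger transcription factors that hold intestinal identity, were followed across 6 peak lists of acetylated lysine 9 of histone H3 (H3K9ac). The genes were chosen by name, and every interval that the authors tied to one of them was kept, whatever its region class. They are 5 of 10621 gene names in the lists and account for 127 of 42851 intervals. Of the 127 intervals 46 were tied to Cdx2, 43 to Gata6, 22 to Gata5, 13 to Cdx1 and 3 to Gata4.

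H3K9ac is a mark of active promoters, found around the start sites of transcribed genes. Cdx2 is the homeobox factor without which the embryonic hindgut endoderm takes on a foregut or stomach character, and in the adult it keeps many enterocyte genes on. Gata4 and Gata6 bind many of the same enhancers as Cdx2 and Hnf4a. In the mouse Gata4 is known for jejunal identity and is low in the distal ileum, whereas Gata6 is made along the length of the intestine.

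Chromatin was taken from the gut epithelium (distal intestine) of C57BL/6 mice that were germ-free, monoassociated with Escherichia coli as the only bacterium, or conventionally housed with a microbiota, with 2 libraries in each of the 3 groups. The labels give strain, antibody and housing and no age, sex or genotype. They do not say whether the 2 libraries of a group are from different animals, and their spread may be technical. Peaks were called in each library by itself.

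The lists differed in length, which touches every count below. The germ-free lists held 4430 and 17094 intervals (replicates 1 and 2), the E. coli-monoassociated lists 1988 and 870, and the conventional lists 3117 and 15352. The background pileup was estimated per list as the median, over called intervals, of the value implied by the interval's pileup and fold enrichment. It was between 0.381 and 0.733 in the 5 lists that give a pileup. Its relation to sequencing depth was not tested. The lowest fold enrichment in a list was between 3.62 and 4.28, so weaker acetylation is not listed, and a gene without an interval may still carry the mark. Of 10 epithelial markers 9, 10, 6, 5, 9 and 10 had a promoter interval in germ-free 1 and 2, E. coli 1 and 2 and conventional 1 and 2, and Epcam, Vil1, Cdh1, Cldn7 and Lgals4 had one in all 6. None of 12 stromal, muscle and endothelial markers and none of 12 blood and immune markers had one in any list. Over 21896 protein-coding genes 37% had one in at least 1 list.

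The 250 bases before the start sites of Cdx2 and Gata5 are shown because these genes alone among the 5 had a promoter interval in every library, and because they lie on the edge of the called regions described below. Both sequences come from RefSeq (GRCm38.p6, the assembly behind mm10) and are written 5′ to 3′ on the strand of the gene, which is the minus strand for both, with motif matches in capitals. The Cdx2 window lies at chr5:147307250-147307499 and the Gata5 window at chr2:180334680-180334929.
Cdx2: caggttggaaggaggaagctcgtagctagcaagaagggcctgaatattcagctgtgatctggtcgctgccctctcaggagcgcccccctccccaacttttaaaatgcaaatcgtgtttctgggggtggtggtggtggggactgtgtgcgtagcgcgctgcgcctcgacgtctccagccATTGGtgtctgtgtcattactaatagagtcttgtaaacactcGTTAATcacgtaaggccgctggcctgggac
Gata5: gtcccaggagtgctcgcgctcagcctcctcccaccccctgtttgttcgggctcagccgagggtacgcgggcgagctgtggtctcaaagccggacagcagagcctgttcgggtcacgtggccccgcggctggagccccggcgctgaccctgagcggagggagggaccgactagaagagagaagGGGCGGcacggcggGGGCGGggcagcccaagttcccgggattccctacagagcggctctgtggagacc
Both strands were searched for TTTAT (the Cdx core), GATAA (the Gata core), CCAAT (the CCAAT box), GTTAAT (an Hnf1 half-site), GGGCGG (the GC box) and TATAAA (the TATA box, whose reverse complement TTTATA overlaps the Cdx core). The capitals in Cdx2 are a CCAAT box on the opposite strand, beginning 72 bases before the start, and an Hnf1 half-site 30 bases before it. Those in Gata5 are 2 GC boxes, 68 and 54 bases before the start. The letters of the Cdx core, the Gata core and the TATA box were in neither window. Of 21262 promoter windows of the same length 33% held TTTAT, 20.5% GATAA, 35.4% CCAAT, 5.86% GTTAAT, 42.6% GGGCGG and 11.6% TATAAA. The Gata5 window was 70% G and C (percentile 87.9 among those windows) with 22 CpG, and the Cdx2 window was 55.2% (percentile 48.2) with 13 CpG, beside a median of 10 CpG.

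A promoter call is an interval that overlaps the 1 kb on either side of a gene's start site. The 5 factors had 4 and 5 promoter calls in the germ-free libraries, 3 and 3 with E. coli, and 4 and 5 under conventional housing. Over 21896 protein-coding genes the share with a call was 11% and 29.6%, 4.2% and 1.87%, and 9.09% and 32.9% in the same order. Cdx2 and Gata5 were called in all 6 libraries, as were 0.996% of protein-coding genes, while 37% were called in at least 1. Cdx1 lacked a call in E. coli 2 alone, a pattern shared by 1.44% of genes, and Gata6 lacked one in E. coli 1 alone, as did 0.379%. Gata4 was called only in germ-free 2 and conventional 2, the longest lists, a pattern shared by 12.1% of genes. The 5 genes together covered 10854 and 24535 bases in germ-free mice, 6635 and 5944 with E. coli, and 11672 and 23251 under conventional housing. As a share of all called bases of a list this was 0.899% and 0.371%, 1.16% and 1.94%, and 1.18% and 0.392%, so the shares were lowest in the longest lists.

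**Figure D1:**
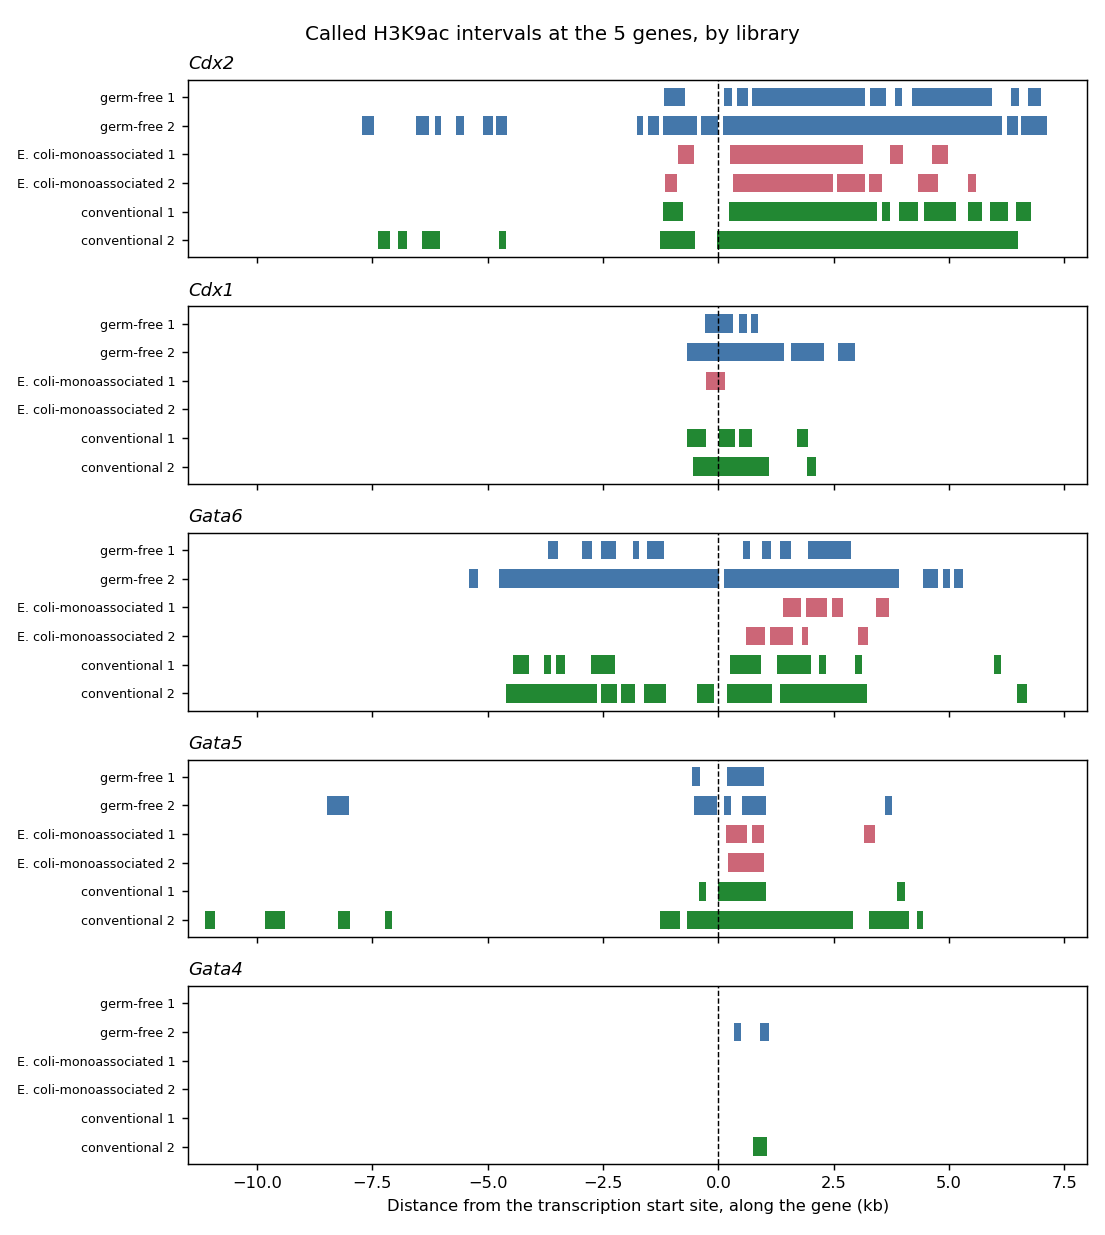
Called H3K9ac intervals of each gene in each library, drawn by distance from the start site in kb, with transcription running to the right; the 3 distant Gata6 intervals lie outside the range drawn. Cdx2 is filled downstream of its start in all 6 libraries, Gata4 has an interval in 2, and the intervals upstream of Gata6 are missing from both E. coli libraries.

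Cdx2, on the minus strand of chromosome 5 with its start at 147307249, was the most broadly acetylated of the 5 in every list. Its intervals covered 5999 and 9624 bases in the germ-free libraries, 3866 and 3887 with E. coli, and 5953 and 8301 under conventional housing. Both E. coli libraries were below the other 4. Among the protein-coding genes of a list Cdx2 ranked 5 and 7, 7 and 3, and 2 and 4 by covered bases, in the same order. Only Cdx2 and Sfi1 were among the 10 protein-coding genes with most covered bases in all 6 lists. Klf5, an epithelial Krüppel-like factor, and Osr2, a zinc-finger factor, joined them among the 25 highest. These genes other than Cdx2 were named after their values were seen.

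The length came from a domain over the gene itself. The broadest Cdx2 interval measured 2436 and 6067 bases in germ-free mice, 2877 and 2163 with E. coli, and 3205 and 6521 under conventional housing. It was between the 2nd and the 13th longest interval of each list, where the median interval was 193 to 264 bases. The transcript is 6350 bases long and in conventional 2 a single interval spanned all of it. In germ-free 2 an interval began 90 bases past the start and covered nearly the whole transcript. Of the Cdx2 bases called, 84.7% and 63.9%, 90.8% and 93.4%, and 87.2% and 76.5% lay within the transcript in germ-free, E. coli and conventional libraries.

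**Figure D2:**
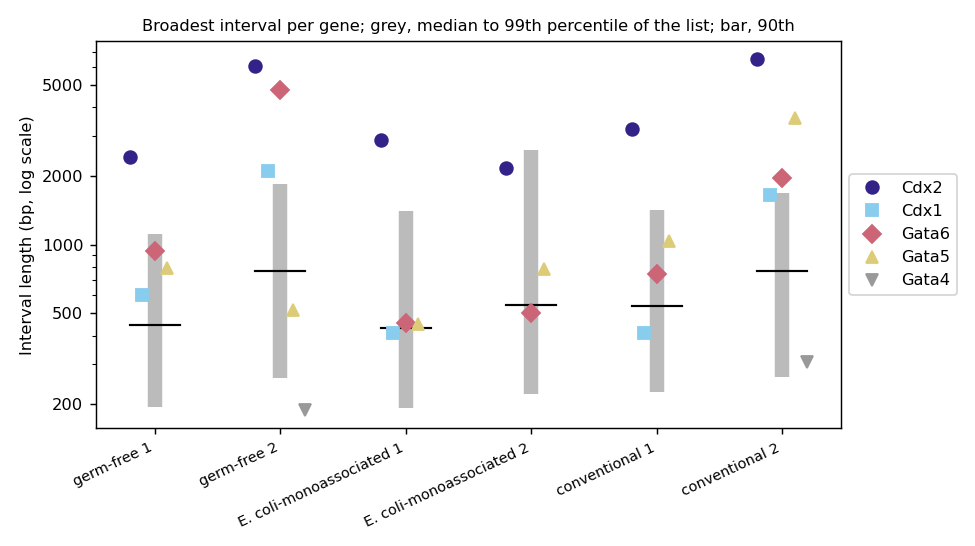
Length in bases (log axis) of the longest interval of each gene in each library, 1 mark per gene, with a grey band from the median to the 99th percentile of all intervals of the list and a black line at the 90th. The Cdx2 intervals lie between 2163 and 6521 bases, and in all 6 libraries no interval of the other 4 genes was longer than that of Cdx2.

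The core shared by all 6 libraries was 2656 bases of the 10575 called for Cdx2 in any. Its longest stretch, 1741 bases at chr5:147304771-147306511, ran from 738 to 2478 bases downstream of the start. Further shared stretches of 245, 549 and 121 bases began 395, 2581 and 4639 bases downstream. The highest point of the strongest interval lay 1184 bases downstream of the start in germ-free 1, 1257 and 1326 in the E. coli libraries, and 1691 and 680 in the conventional libraries. Germ-free 2 gives no summit.

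The start site of Cdx2 itself was bare of calls in 5 libraries. The base at the start was inside an interval only in conventional 2. The 250 bases printed above held no called base in germ-free 1, E. coli 1, E. coli 2 and conventional 1, 250 in germ-free 2 and 36 in conventional 2. A bare start is usual in these lists: of genes with a promoter call, between 80.2% and 94.6% had an uncovered start base. On the far side of this gap every list held an interval between positions -1276 and -1 from the start, of 466 and 1106 bases in germ-free mice, 356 and 256 with E. coli, and 433 and 763 under conventional housing (in germ-free 2 as 2 intervals). Further out, between -7728 and -4584, germ-free 2 held 6 intervals and conventional 2 held 4, and the other 4 lists held none.

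The fold enrichment given here is the authors' own value per peak, and serves only to order peaks of the same list. The strongest Cdx2 interval was enriched 13.3-fold and 14.6-fold in germ-free mice, 14.8-fold and 9.98-fold with E. coli, and 14.2-fold and 22.4-fold under conventional housing. By −log10 p it was at percentile 97.7 and 99.1, 95.3 and 86.2, and 97.7 and 99.7 of its list. The lowest percentile was in E. coli 2, the shortest list.

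Cdx1, the homeobox factor of crypt and colon epithelium, starts at position 61036199 on the minus strand of chromosome 18 and covered far less. Its intervals held 927 and 3207 bases in the germ-free libraries, 409 and 0 with E. coli, and 1276 and 1867 under conventional housing. Both E. coli libraries were again below the other 4. No base was called in all 6 lists, and 123 bases, from 13 to 135 downstream of the start, were called in 5. Unlike Cdx2, the start base itself was covered in 4 lists: germ-free 1, germ-free 2, E. coli 1 and conventional 2.

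The strongest Cdx1 interval was enriched 5.77-fold and 8.24-fold in germ-free 1 and 2, 5.33-fold in E. coli 1, and 6.37-fold and 18.1-fold in conventional 1 and 2. Its percentile was 58.3 and 90 in germ-free mice, 41.4 in E. coli 1, and 67 and 99.5 under conventional housing. Cdx1 was thus a middling peak in 3 lists and at rank 68 of 15352 in conventional 2. In each of the 5 lists that held Cdx1, the Cdx2 percentile was higher.

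**Figure D3:**
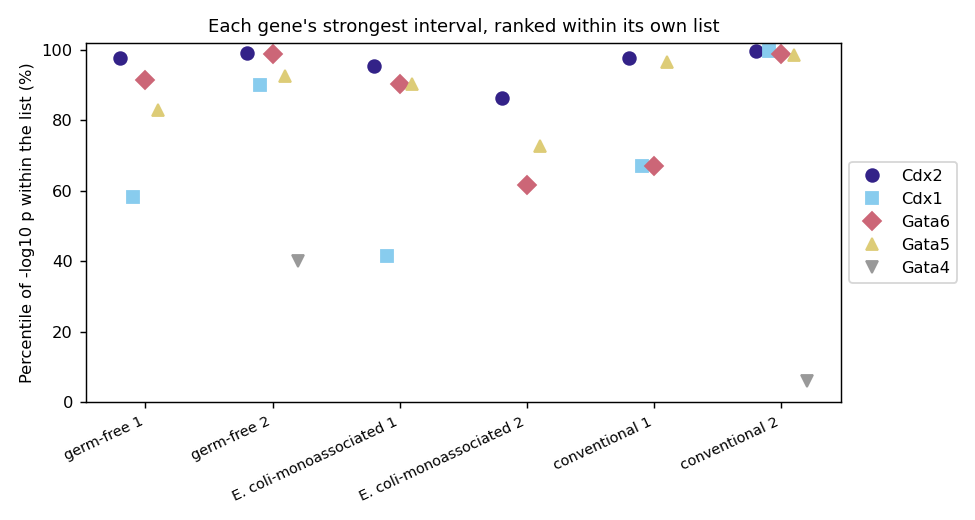
Percentile by −log10 p of each gene's strongest interval within its own list (vertical axis, %), by library. Cdx2 stays between 86.2 and 99.7, Cdx1 runs from 41.4 to 99.5, and Gata4 appears at 40.1 in germ-free 2 and 5.91 in conventional 2.

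Gata6, the Gata factor of crypt and villus cells, starts at 11052510 on the plus strand of chromosome 18. It had 10 and 7 intervals covering 2967 and 9572 bases in the germ-free libraries, 4 and 4 covering 1382 and 1270 bases in the E. coli libraries, and 9 and 9 covering 3075 and 6696 bases in the conventional libraries. Both E. coli libraries were below the other 4. By covered bases Gata6 ranked between 8 and 45 among the protein-coding genes of each list, second to Cdx2 among the 5 factors in all 6.

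The Gata6 intervals fell on both sides of the start. Upstream bases numbered 1422 and 5083 in germ-free mice, 0 and 0 with E. coli, and 1204 and 3614 under conventional housing. In germ-free 2 most of them were in a single interval of 4756 bases that reached the start, and in the other 3 lists with upstream signal it was broken into several intervals. Such a pattern was common: of 127 genes with an upstream-class interval in both germ-free lists, 63.8% had none in either E. coli list, and of 62 genes with one in all 4 germ-free and conventional lists, 33.9% had none in either E. coli list. When each list was reduced to an equal number of its most significant intervals, an alternative chosen for these bases after the data were seen, the upstream bases were 0 and 4750, 0 and 0, and 0 and 1970, so they remained in the replicate 2 libraries of the germ-free and conventional groups alone.

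Downstream of the Gata6 start all 6 libraries shared 184 bases, 172 of them from 1402 to 1573. In germ-free 1, E. coli 1 and conventional 2 the strongest interval was of the exon class and not at the promoter, enriched 8.08-fold, 8.88-fold and 14.5-fold. E. coli 1 had no promoter call because its 4 intervals began 1402 bases or more past the start, and with 2.5 kb on either side of the start Gata6 was called in all 6 libraries. Single distant intervals, between -187304 and -186108 from the start, were tied to Gata6 in germ-free 1, germ-free 2 and conventional 2 and did not overlap each other. They were 146 to 147 bases long, at percentiles 21.1, 5.7 and 5.91 of their lists. Mib1, the next protein-coding gene on that side, lies 233932 bases from Gata6 and was nearer to them than Gata6.

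Gata5, a Gata factor of differentiated villus cells, starts at 180334679 on the minus strand of chromosome 2 and was called in every library at the promoter. It covered 961 and 1797 bases in germ-free mice, 978 and 787 with E. coli, and 1368 and 6082 under conventional housing. The E. coli and germ-free values overlapped, and conventional 2 stood far above the other 5. A stretch of 801 bases, from 193 to 993 downstream of the start, was called in at least 5 libraries, and 440 of its bases in all 6. Distant upstream intervals, 4 from -11120 to -7085 in conventional 2 and 1 from -8488 to -8012 in germ-free 2, were absent from the other 4 lists. The 250 bases printed above held 217 called bases in germ-free 2, 250 in conventional 2 and 0 in the other 4 lists.

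The strongest Gata5 interval was enriched 6.93-fold and 8.87-fold in germ-free mice, 8.88-fold and 7.13-fold with E. coli, and 12-fold and 13.8-fold under conventional housing. Its percentile was 82.8 and 92.5, 90.3 and 72.6, and 96.6 and 98.5. It was below that of Cdx2 in every list. In each library 1 of the Gata5 promoter intervals was also tied by the authors to the noncoding gene Gata5os (Gm14318 in the lists). Chromatin immunoprecipitation carries no strand, so acetylation of the pair cannot be told apart there.

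Gata4, the jejunal Gata factor, starts at 63245260 on the minus strand of chromosome 14 and had the weakest signal. Germ-free 2 held 335 bases in 2 intervals, conventional 2 held 305 bases in 1 interval, and the other 4 libraries held 0. The germ-free 2 intervals were enriched 5.07-fold and 3.8-fold, and the one in conventional 2 was enriched 3.62-fold, the lowest fold of that list. They lay between 347 and 1088 bases downstream of the start and shared 152 bases between the libraries. The strongest was at percentile 40.1 in germ-free 2 and 5.91 in conventional 2, so in both lists Gata4 ranked lowest of the 5 factors.

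The design sets the 3 housing groups against each other. Germ-free and conventional libraries covered more of Cdx2 and Gata6 than E. coli libraries did, and the E. coli values did not overlap those of either other group. Germ-free and conventional values overlapped for both genes. Cdx2 held 7811.5 ± 2563.3 bases in germ-free, 3876.5 ± 14.8 in E. coli and 7127 ± 1660.3 in conventional libraries (mean ± SD, n = 2 each). Gata6 held 6269.5 ± 4670.4, 1326 ± 79.2 and 4885.5 ± 2560.4 bases in the same order. Cdx1 held 2067 ± 1612.2, 204.5 ± 289.2 and 1571.5 ± 417.9 bases, and its E. coli values also lay apart from the other groups. For Gata5 the values were 1379 ± 591.1, 882.5 ± 135.1 and 3725 ± 3333.3, and for Gata4 167.5 ± 236.9, 0 and 152.5 ± 215.7.

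**Figure D4:**
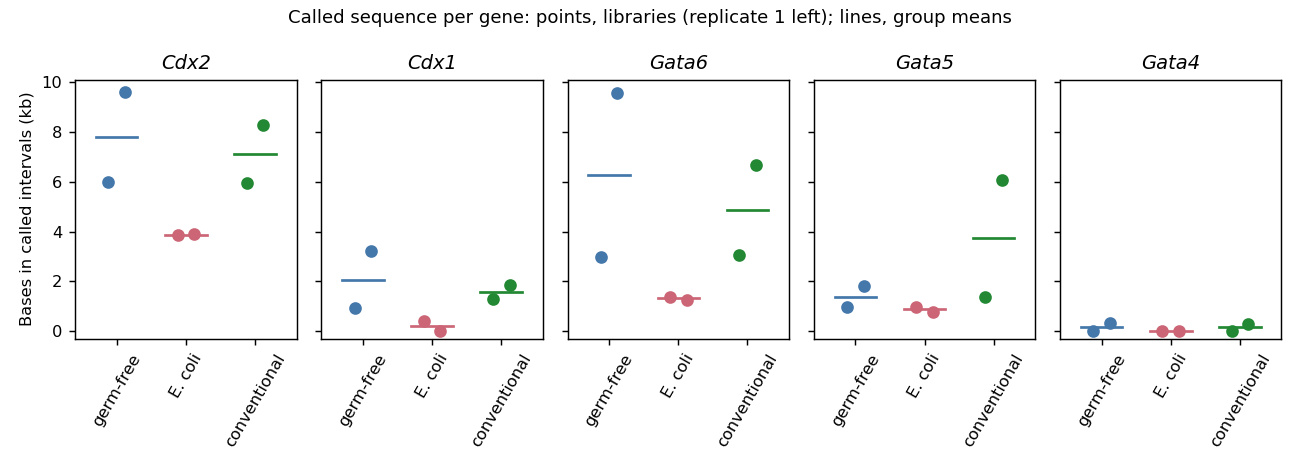
Sequence covered by intervals of each gene (kb), 1 point per library and a line at the mean of each housing group. For Cdx2 the E. coli points lie at 3866 and 3887 bases, below the germ-free and conventional points, and the germ-free and conventional points overlap.

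Both E. coli libraries had fewer covered bases than both germ-free libraries for Cdx1, Cdx2 and Gata6, 3 of the 5. Of 8185 protein-coding genes with a covered base in any of these 4 libraries, 29.6% (2421) had this order. The opposite order was found for 0.0367%, and for none of the 5. A gene with no covered base in germ-free 1 cannot have fewer with E. coli, and only 3169 protein-coding genes had a covered base in germ-free 1. All 2421 genes are among these 3169, so the share among genes that could show the order is far higher than 29.6%. Of the 5 factors 4 had a covered base in germ-free 1, so 3 of 4 stands beside 2421 of 3169. Both conventional libraries had more than both E. coli libraries for Cdx1, Cdx2, Gata5 and Gata6, 4 of the 5. Of 8437 protein-coding genes with a covered base in any of these 4 libraries, 23.5% (1980) did and 0.083% had the opposite order. Having more in both conventional libraries needs a covered base in conventional 1, which only 2321 protein-coding genes had. All 1980 genes are among these 2321, so the share among genes that could show it is likewise far higher than 23.5%. Of the 5 factors 4 had a covered base in conventional 1, so 4 of 4 stands beside 1980 of 2321. These 2 comparisons share the E. coli libraries. None of the 5 was apart between conventional and germ-free libraries, as 1.68% of genes were in one direction and 1.81% in the other. With 2 libraries a group the exact two-sided permutation test cannot give a p below 0.333, so no gene could have an unadjusted p under 0.05. The 5 factors and 3 pairs of groups gave 15 such tests. A p of 0.333 was reached for Cdx1, Cdx2 and Gata6 in E. coli against germ-free, and for the same genes and Gata5 in conventional against E. coli. No gene in the lists passed an adjusted p of 0.05 (Benjamini-Hochberg over 8924 to 10475 genes, exact permutation), and the adjusted p of each of the 5 was 1.

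The shorter E. coli lists moved with these differences. Among an equal number of the most significant intervals (870 per list, the length of the shortest) 2 and 2 of the 5 factors kept a promoter call in germ-free mice, 2 and 3 with E. coli, and 4 and 4 under conventional housing. Ties at the limit were kept, so the lists held 927 and 1111, 957 and 870, and 1320 and 971 intervals, and conventional 1 was the longest. The background was 2.49% and 3.84%, 2.03% and 1.87%, and 4% and 3.69%. Cdx2 alone was called there in all 6 lists, as were 0.343% of protein-coding genes. In these shortened lists Cdx2 still covered 4665 and 6801 bases in germ-free mice, 3582 and 3887 with E. coli, and 4806 and 6521 under conventional housing. The E. coli libraries thus stayed below the other 4 at Cdx2. The share of all genes with this order in the shortened lists was not counted, so no background stands beside it. An equal number of intervals also does not fix the number of bases covered. Cdx1 was then at 0 in both germ-free and both E. coli libraries, with 409 and 1657 bases in the conventional libraries. Gata6 was at 941 and 8559, 1382 and 1270, and 1421 and 4829 bases, so the germ-free and E. coli groups overlapped. Gata5 was at 795 and 0, 978 and 787, and 1191 and 3589 bases.

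Where within Cdx2 the calls differed can be read base by base. Of the Cdx2 bases 1581 were called in the germ-free pair but in no E. coli library, and 1413 in the conventional pair but in no E. coli library. No base was called in the E. coli pair and missing from a whole other group. For Gata6 the corresponding counts were 1742 and 1542, with 0 in the opposite directions. The share of such bases over all genes was not counted. By promoter calls the lists as a whole were also one-sided. Of 248 protein-coding genes called in both E. coli libraries, 0 lacked a call in a whole other group. Of 2222 called in both germ-free libraries 65.7% had no E. coli call, as had 61.9% of 1968 called in both conventional libraries. Between conventional and germ-free libraries Cdx2 had 111 bases in both conventional and neither germ-free, and 206 in the opposite pattern.

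Other genes of the pathway were counted by promoter calls. The share of all protein-coding genes with a call was 11% and 29.6% in germ-free mice, 4.2% and 1.87% with E. coli, and 9.09% and 32.9% under conventional housing. This share was lowest in the E. coli lists, and 0.996% of genes were called in all 6 libraries. Partner factors of the intestinal epithelium (20 genes) had 9 and 14 calls in germ-free mice, 6 and 5 with E. coli, and 8 and 15 under conventional housing, and 5 had none. Hnf4a, Klf4, Klf5 and Elf3 were called in all 6. Hnf4a, the nuclear receptor that shares many sites with Cdx2, was enriched between 4.73-fold (E. coli 1) and 13.3-fold (germ-free 2) at its promoter. Known targets of Cdx or Gata factors (30 genes) had 12 and 21, 8 and 5, and 17 and 25 calls, and 3 had none. Vil1 (villin of the brush border), Lgals4 (a galectin) and Anpep (aminopeptidase N) were called in all 6. Of 12 targets called in both germ-free libraries 4 had no E. coli call, beside 65.7% of 2222 protein-coding genes, and of 9 partners 2 had none. None of the 5 factors had this pattern, since the 4 called in both germ-free libraries each had an E. coli call. Nor was any of the 5 called in both germ-free and no conventional library (2.52% of genes called in both germ-free libraries) or in both conventional and no germ-free library (3.35% of genes called in both conventional libraries).

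Promoter calls were absent from the other family members and from stomach genes. The other family members Gata1, Gata2 and Gata3, with Cdx4 and the Fog cofactors Zfpm1 and Zfpm2, had no promoter call in any list, nor had any of 10 stomach and foregut genes. Over all protein-coding genes 37% had a call in at least 1 list, so most had none. By library the shares were 11% and 29.6% in germ-free mice, 4.2% and 1.87% with E. coli, and 9.09% and 32.9% under conventional housing. Of 5 ileal genes 2 and 3 were called in germ-free mice, 1 and 2 with E. coli, and 3 and 3 under conventional housing. Among them Slc51a, a bile acid exporter subunit, was called in 5 libraries, and Slc51b, its partner, and Fabp6, the ileal bile acid binding protein, in 4 each. Slc10a2, the bile acid importer, was called in germ-free 2 alone, and Fgf15, a hormone induced by bile acids, in none. Of 5 proximal genes Apoa4 was called in germ-free 2 alone and Slc40a1 in conventional 2 alone.

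The promoters of most genes beside the factors were not called, as was true of protein-coding genes at large. Of these 37% had a promoter call in at least 1 list. Pdx1, a homeobox gene 25052 bases from Cdx2, and Urad, 7735 bases on the other side, had no promoter call in any list. The neighbours of Gata4 (Neil2 and Blk) and of Gata5 (Rbbp8nl and Slco4a1) had none either. Of the Cdx1 neighbours Pdgfrb and the overlapping Gm52351 had none and Slc6a7 had 1, in conventional 2, at 4.35-fold. The others with calls lay far away: Mib1, 233932 bases from Gata6, was called in 4 libraries, and Rbbp8, 547640 bases away, in 2.

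Among genes called in the same libraries, likeness was measured as the mean absolute difference in the percentile of the strongest promoter interval. For Cdx2, over 6 libraries and 217 other genes, the closest were Zc3h4 (0.887 percentile points), Ino80d (1.1) and Vil1 (1.16). For Gata5 they were Actg1 (2.77), Kmt2d (3.7) and Arfgap1 (3.83). For Cdx1, over 5 libraries and 314 genes, they were Ddx5 (0.708), Mtmr4 (1.92) and Dync1li2 (3.34). For Gata6, over 5 libraries and 82 genes, they were Cdhr2 (3.15) and, tied at 7.25, Gucd1 and Snrpd3. For Gata4, 38 of 2651 genes were tied at a difference of 0 over its 2 libraries, so no gene can be singled out.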

How the data were processed

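H3K9ac chromatin immunoprecipitation libraries of 6 intestinal epithelial samples, 2 per housing group, were grouped by the labels. Per the labels' protocols each library was read to 20 M single-end reads of 50 bases. The build mm10 and the tools MACS2 2.1.1.20160309 and Bowtie 1.2.0 are named in the submitters' processing notes. Not given in the sources used here: any input control and the calling options. Each deposited list was called on 1 library and gives, per the file headers, the pileup (signal, coverage by extended reads), the −log10 of the p- and q-value, the fold enrichment (a ratio to background), the interval length, the region class and the gene. The deposited list of germ-free 2 has 14 header names over 13 cells per line, with no summit or pileup, and its columns were identified from the values. Mitochondrial lines, which lack the gene cells in 3 lists, were not used for genes.

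Repeated lines of an interval with several summits were joined into 1. Gene names were matched to the RefSeq table of GRCm38.p6 (10591 of 10621 matched, 30 did not). Distances, covered bases, ranks (ties at the best rank) and shared bases were computed per library with Python 3.11.15, pandas 2.3.3, NumPy 2.4.6 and statsmodels 0.14.6, and figures with matplotlib 3.10.9. Covered bases were compared between groups by exact permutation for every gene, adjusted by Benjamini-Hochberg, with the permutation code tested on simulated data. The lists hold only enriched intervals and no read counts per gene, so no confidence interval or floor for counts could be given.

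The 5 factors and the gene lists were chosen with earlier results of these data known. Named were the 5 factors, list genes called in all 6 libraries (where over 6 or none, the 4 with the most libraries called), the 3 genes most alike per factor and the nearest protein-coding gene on each side. Alternatives were stricter −log10 q or fold thresholds, an equal number of intervals per list, assignment by position, other promoter windows and overlaps, the authors' promoter class, the replicate block and leaving out each library. The list of colonic genes is not reported here.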

Additional observations from a re-analysis of the deposited data

How the results depend on the processing

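Of 7 alternatives for promoter calls, Cdx2 had 5 calls with at least 500 bases in the window and 6 under the others, and Gata5 had 5 there and with an equal number of intervals and 6 under the others. With a −log10 q of 5 or more Cdx1 had 3 calls, Gata4 0 and Gata6 3, the 3 Gata4 differences in covered bases were 0, and the Gata5 difference of E. coli minus germ-free turned to 104.5 bases. With a fold of 5 or more Gata6 had 4 calls, Gata4 had 1, and the Gata4 difference of conventional minus E. coli was 0. With an equal number of the most significant intervals Cdx1 had 2 calls, Gata4 0 and Gata6 4. There E. coli minus germ-free was 0 for Cdx1 and turned to 485 for Gata5, the conventional minus germ-free difference turned to 1033 for Cdx1, and all 3 Gata4 differences were 0. With at least 500 bases in the window Cdx1 had 3 calls, Gata4 0 and Gata6 3. With the authors' promoter class alone, Cdx2 in conventional minus germ-free turned to 220.5 bases. The cause was not tested.

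Leaving out each library gave ranges of 4 to 5 calls for Cdx1 and Gata6, 5 to 5 for Cdx2 and Gata5 and 1 to 2 for Gata4, out of 5 libraries. E. coli minus germ-free ran from -3002.5 to -722.5 for Cdx1, -5747.5 to -2122.5 for Cdx2, -335 to 0 for Gata4, -914.5 to -78.5 for Gata5 and -8246 to -1641 for Gata6. Conventional minus E. coli ran from 1071.5 to 1662.5, 2076.5 to 4424.5, 0 to 305, 485.5 to 5199.5 and 1749 to 5370 in the same order. Conventional minus germ-free changed sign for each: -1635.5 to 644.5, -2497 to 1128, -182.5 to 152.5, -11 to 4703 and -4686.5 to 1918.5. Without germ-free 2 it was 644.5 for Cdx1, 1128 for Cdx2, 152.5 for Gata4 and 1918.5 for Gata6. Without conventional 1 it was 489.5, 137.5 and 426.5 for Cdx2, Gata4 and Gata6, and without conventional 2 it was -11 for Gata5.

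Replicate numbers are shared across groups in the labels. Deviations of same-numbered libraries correlated at 0.0956, 0.0936 and 0.0973 across 10615 genes, and the main comparison did not treat them as pairs. Replicate 2 had the longer list in the germ-free (17094 intervals against 4430) and conventional groups (15352 against 3117). With E. coli it had the shorter one (870 against 1988). Whether replicate numbers mark a shared batch was not tested. With the replicate block the differences were the same (for Cdx2 -3935, -684.5 and 3250.5 bases) and the smallest exact p possible was 0.5, so no gene could pass. A 2.5 kb window gave Gata6 6 calls, E. coli 1 included, and no other change. Assignment by position and the authors' promoter class left all promoter calls as they were. Among the lists that give a pileup, the background pileup was lowest in conventional 2 (0.381, 15352 intervals). It was 0.69 in E. coli 1 (1988 intervals). Germ-free 2, the longest list (17094 intervals), gives no pileup and so has no background value. Whether list length depends on the background pileup or on sequencing depth was not tested. Gata4 at a lowest fold of 3.62 lies at the edge of what is listed.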
